A study of Mus musculus with 6 samples.

Results

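The polarization state of macrophages in injured dorsal root ganglia (DRG) was read here from 10 marker genes, 5 of the pro-inflammatory M1 state (Nos2, Itgax, Il1b, Tnf and Il6) and 5 of the anti-inflammatory M2 state (Arg1, Mrc1, Cd163, Retnla and Il10). The genes were taken by name, and all probe sets that the platform's annotation gives to them were used. Each gene had 1 probe set, which made 10 of the 45037 tested probe sets and 10 of 18193 named genes. No probe set of these genes was shared with another gene.

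Macrophages carrying F4/80 and CD11b were sorted 7 days after spared nerve injury (SNI) from pooled ipsilateral L4 and L5 DRG, with 3 independently collected samples per genotype (WT and miR-21 cKO), and each sample was run on 1 Affymetrix Mouse 430V2 array. The miR-21 cKO mice lack miR-21 in sensory neurons through the Avil-Cre driver, so the sorted macrophages did not carry the deletion by design, and the WT mice were littermates. miR-21 itself was not read by the arrays, so the genotype of each array rests on its label. For the mouse line, the paper reports by PCR that miR-21 was significantly reduced, but not absent, in miR-21 cKO DRG compared with WT. All mice were males of 8 to 10 weeks and all had received SNI, so that no uninjured or sham sample stands beside them. How many mice made up a pool is stated by the methods for flow cytometry and not for the arrays, and the arrays cannot tell fewer cells of a kind from less RNA per cell.

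Macrophages take up different programmes according to the signals around them. Bacterial products, acting through NF-kB, drive the M1 programme of nitric oxide and inflammatory cytokines, while IL-4 and IL-13, acting through STAT6, drive the M2 programme of arginase, mannose receptor and resistin-like proteins. Both ends compete for arginine, which Nos2 turns into nitric oxide and Arg1 into ornithine. The states are the ends of a range, and macrophages in tissue often carry markers of both. In nerve and DRG, inflammatory macrophages are known for mediators that sensitise neurons. In flow cytometry the study separated M1 cells as CD206-CD11c+ and M2 cells as CD206+CD11c-, and on the arrays CD11c is read by Itgax and CD206 by Mrc1.

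The microRNA removed from the neurons and the promoters of Il6 and Itgax are printed to show the deleted molecule and the upstream letters of the 2 markers that a test called. Capitals mark the seed (bases 2 to 8) in the microRNA, a match to the NF-kB motif in the Il6 promoter and a match to the STAT6 motif in the Itgax promoter. The sequences are those of RefSeq on GRCm38.p6, with miR-21a-5p at chr11:86584120-86584141 on the minus strand, the Il6 stretch at chr5:30012964-30013113 on the plus strand and the Itgax stretch at chr7:128129400-128129549 on the plus strand. Each stretch holds the 150 bases before the annotated start of transcription.
mmu-miR-21a-5p: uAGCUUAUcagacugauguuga
Il6 promoter: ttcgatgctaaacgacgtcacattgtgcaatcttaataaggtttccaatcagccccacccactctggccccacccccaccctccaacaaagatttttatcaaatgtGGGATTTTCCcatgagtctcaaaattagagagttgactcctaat
Itgax promoter: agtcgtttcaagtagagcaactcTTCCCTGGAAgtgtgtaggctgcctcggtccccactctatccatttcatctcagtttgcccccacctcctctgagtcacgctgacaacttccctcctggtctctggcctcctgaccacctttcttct

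The NF-kB letters searched were GGGNNTTTCC on both strands, and of the 7 markers with a promoter in the table (Il1b, Il6, Itgax, Tnf, Mrc1, Cd163 and Retnla) 1 held them, Il6, 44 to 35 bases before the start. The search also covered bases upstream of the printed stretches. Of all 32851 promoters, searched in the same way, 1.63% held the NF-kB letters. Markers were counted by gene and the background by promoter. The STAT6 letters were TTCNNNNGAA, which read the same on both strands. They were found in 2 of the 7 markers, Itgax (127 to 118 bases before the start) and Retnla (145 to 136 bases before), and in 6.95% of all promoters. A TATAAA was found in 3, Il1b, Tnf and Retnla, against 13.6% of all promoters. Such a match describes letters and is not a measured binding site.

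The markers, like most probe sets on the arrays, were near or below background. Their mean signals ranked at a percentile of 5.65 (Il6) to 87.7 (Mrc1) of all probe sets, and 4 of 10 (Mrc1, Tnf, Il1b and Cd163) were above the median probe set. Olfactory receptor probe sets, 47 in number, served as a measure of background. Their mean log2 signals over the 6 arrays had a median at a signal of 317 and a 95th percentile at 1037. None of the 10 markers had a mean over the 6 arrays above 1037, where 4.95% of all tested probe sets did. Of the 60 single signals of the markers 9 lay above it, against 17.4% of all signals on the arrays, though the level comes from means over arrays. These 9 belonged to Nos2, Il1b, Tnf, Mrc1 and Cd163, while Itgax, Il6, Arg1, Retnla and Il10 were under it on all 6 arrays. The lowest marker signal was 26.4 and the highest 2641, beside array medians of 271 to 309.5. The arrays resembled each other little over the whole platform, with Spearman correlations across all probe sets of 0.192 to 0.319 between pairs of arrays. A difference between genotypes that lies under this level on all arrays is one of measured signals and does not show a change of expression.

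**Figure D1:**
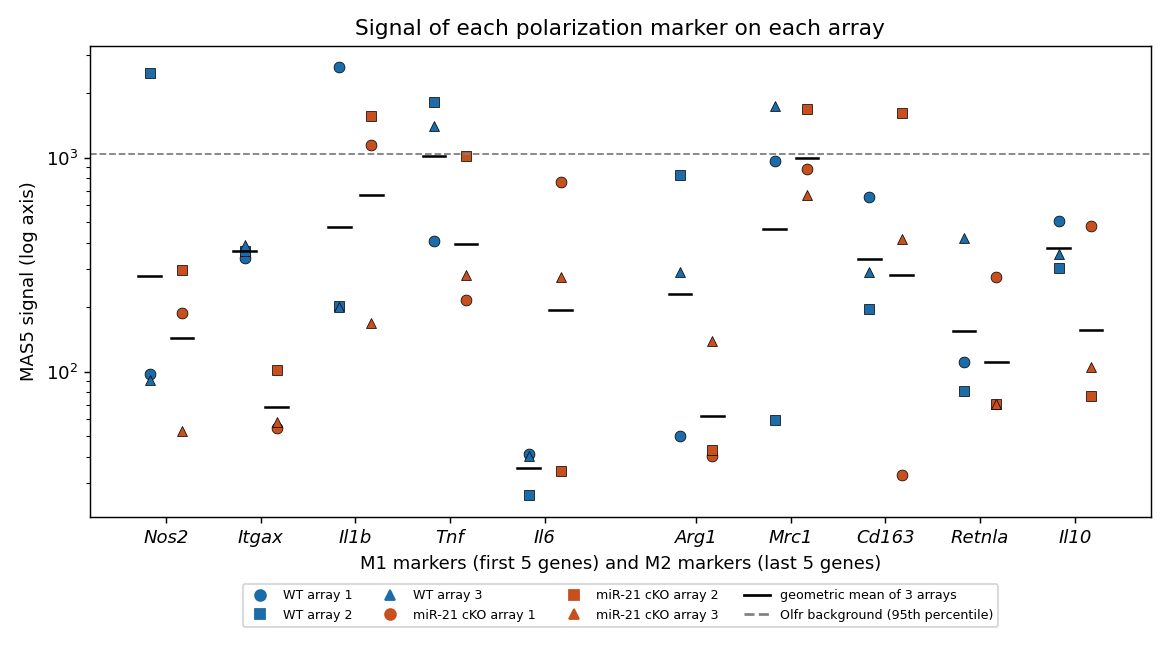
Signal of the 10 markers on each array. The vertical log axis is the MAS5 signal, blue points are WT arrays and orange points miR-21 cKO arrays, with the array number given by the shape, black bars are geometric means and the dashed line is the Olfr background of 1037. The Itgax points of the genotypes are apart, at 341 to 389 and 54.3 to 102, and those of the other 9 markers overlap.

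The M1 markers had differences of both signs. Il6, a cytokine of acute inflammation that also acts on sensory neurons, was the 1 marker called by limma at the 2 cutoffs of the study's methods (2-fold or more, with p below 0.05 before adjustment). WT arrays 1, 2 and 3 read 41.0, 26.4 and 40.5, and the miR-21 cKO arrays, in the same order as throughout, read 772, 34.4 and 277. Thus 2 of 3 miR-21 cKO arrays stood above all WT arrays, while array 2 lay among them. The log2 difference, miR-21 cKO minus WT, was 2.46 (standard error 1.20, 95% interval 0.12 to 4.81, limma unadjusted p = 0.0396, adjusted p = 0.9999). With the spread of the Il6 probe set itself the interval was -1.25 to 6.17, and the methods' t-test did not call it (unadjusted p = 0.139). The call was also lost in 5 of the 6 fits that leave out 1 array, with values of 1.47 without miR-21 cKO array 1 to 2.57 without WT array 1. It held without miR-21 cKO array 2 (3.71). Among all tested probe sets 2.11% were called higher and 2.40% lower, and among the 10 markers 1 was called higher and 0 lower.

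Itgax, the integrin chain CD11c that pairs with CD18 and marks the M1 gate as well as dendritic cells, was the 1 marker whose genotypes did not overlap. The WT signals were 341, 367 and 389, against 54.3, 102 and 58.1 for miR-21 cKO. All 3 miR-21 cKO arrays were thus below every WT array, at percentiles of 13.7 to 28.5 among all probe sets of the array, against 52.6 to 56.1 for WT. The log2 difference was -2.41 (standard error 1.49, 95% interval -5.34 to 0.51, limma unadjusted p = 0.105, adjusted p = 0.9999). The methods' t-test called it lower (unadjusted p = 0.00119, adjusted p = 0.361), with an interval of -3.23 to -1.60. That test called 2.41% of all probe sets higher and 2.53% lower, and of the markers 0 higher and 1 lower. A two-sided exact permutation of the arrays gave p = 0.1, and no smaller value can be reached with 3 arrays per genotype. No overlap was seen in 9.81% of all probe sets, and in 5.07% with miR-21 cKO as the lower genotype. In limma the spread was taken from probe sets of like brightness, whereas the SD of Itgax within genotype was 0.36 on the log2 scale, smaller than for all but 1.04% of probe sets. Without 1 array the difference stayed between -2.70 and -2.25. Both genotypes were below the Olfr background on every array.

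**Figure D2:**
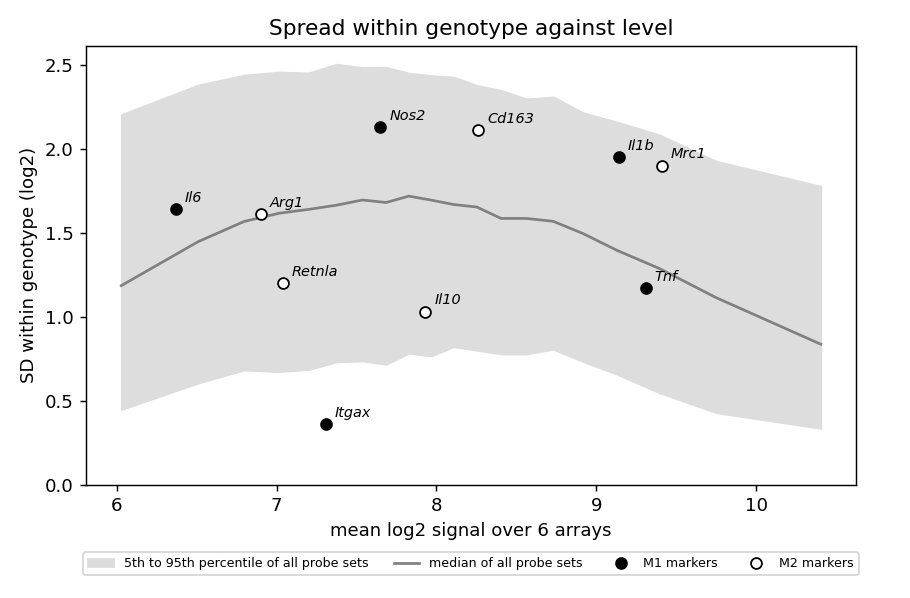
Spread within genotype against level for the 10 markers. The horizontal axis is the mean log2 signal over 6 arrays and the vertical axis the SD within genotype on the log2 scale, with filled circles for M1 markers, open circles for M2 markers, and the 5th to 95th percentile (grey band) and median (line) of all probe sets. Itgax lies under the band at 0.36, and the other 9 markers lie inside it, up to 2.13 for Nos2.

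Nos2, the inducible nitric oxide synthase, stood far apart on 1 array. WT read 97.1, 2488 and 91.4, and miR-21 cKO read 188, 297 and 53.0. The WT arrays thus differed 27.2-fold among themselves, and 2 of them lay below 2 of the miR-21 cKO arrays. The log2 difference of -0.97 (95% interval -3.92 to 1.98) became 0.61 without WT array 2.

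Tnf, a cytokine made early by inflammatory macrophages, read 408, 1816 and 1401 in WT, against 216, 1012 and 283 in miR-21 cKO. The upper 2 values were from WT, and WT array 1 lay below miR-21 cKO array 2. The log2 difference was -1.36 (95% interval -3.58 to 0.86, limma unadjusted p = 0.231), and it was negative without each array, at -2.03 to -0.92.

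Il1b, whose product is cut to active IL-1beta by caspase-1, had signals of 2641, 203 and 201 in WT, where miR-21 cKO had 1140.1, 1571 and 169. Both genotypes held arrays at either end, and the values did not separate. The log2 difference was 0.50 (95% interval -1.80 to 2.80), with a sign that turned (-0.12) when WT array 2, WT array 3 or miR-21 cKO array 2 was left out. Among the 5 M1 markers 3 were thus lower and 2 higher in miR-21 cKO by the sign of the difference alone.

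None of the 5 M2 markers was called, by limma or by the methods' t-test. Mrc1 (CD206), the mannose receptor and marker of the M2 gate, read 959.7, 59.4 and 1751 in WT, beside 881, 1688 and 672 in miR-21 cKO. WT held both the highest and the lowest value, and the 3 miR-21 cKO arrays lay between them. The log2 difference was 1.11 (95% interval -1.06 to 3.28, limma unadjusted p = 0.317), and it was -0.37 without WT array 2.

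Arg1, the arginase that competes with Nos2 for arginine, had 50.0, 830.5 and 291 in WT, against 40.3, 43.1 and 139 in miR-21 cKO. The 2 highest values came from WT, and WT array 1 lay among the miR-21 cKO arrays. The log2 difference was -1.88 (95% interval -4.62 to 0.86, limma unadjusted p = 0.179), and it was negative without each array, at -2.98 to -0.95.

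Il10, an anti-inflammatory cytokine that acts back on macrophages, had 503, 304 and 355 in WT, against 478, 76.7 and 105 in miR-21 cKO. The 2 lowest values came from miR-21 cKO, while its array 1 stood near the highest WT array. The log2 difference was -1.27 (95% interval -4.16 to 1.61, limma unadjusted p = 0.387), and -2.08 to -0.76 without 1 array.

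Cd163, the scavenger receptor for haemoglobin bound to haptoglobin, had 655, 196 and 291 in WT, where the miR-21 cKO values of 33.0, 1619.9 and 417 enclosed all of them. Its log2 difference was -0.25 (95% interval -2.99 to 2.49), and it ran from -1.51 without miR-21 cKO array 2 to 1.30 without miR-21 cKO array 1. Retnla, the secreted resistin-like protein induced by IL-4, had 110.4, 81.0 and 420.2 in WT, against 277, 70.2 and 70.4 in miR-21 cKO. Its arrays overlapped as well, with a log2 difference of -0.49 (95% interval -3.30 to 2.33) that was 0.23 without WT array 3. For both genes the arrays of 1 genotype differed more among themselves than the genotypes did, up to 49.2-fold for Cd163 in miR-21 cKO.

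**Figure D3:**
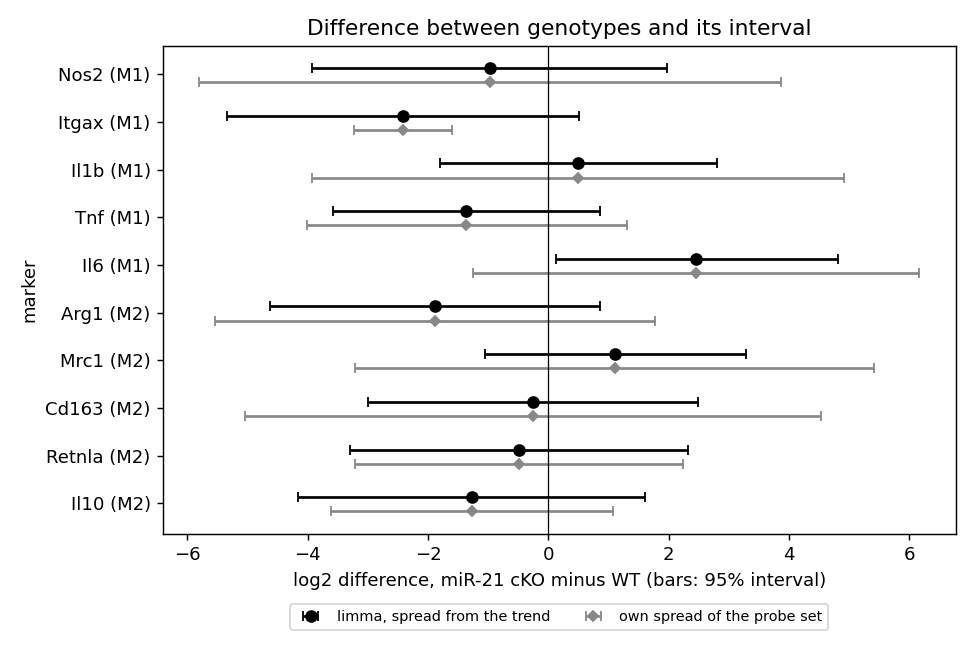
Log2 difference of each marker, miR-21 cKO minus WT. The horizontal axis is the difference on the log2 scale, black circles carry the 95% interval of limma and grey diamonds that from the spread of the probe set itself. The limma interval of Il6 starts at 0.12 and those of the other 9 markers include 0, while by its own spread Itgax (-3.23 to -1.60) does not include it.

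Over the 10 markers 7 had a negative and 3 a positive difference, 3 of 5 negative for M1 and 4 of 5 for M2, where 51.1% of all probe sets were negative. A size of at least 1 on the log2 scale, which is 2-fold, was reached by 6 of the 10 and by 43.4% of all probe sets. The median log2 difference was -0.97 over the M1 markers and -0.49 over the M2 markers, beside -0.03 over all probe sets, and it carries no test. No marker had an adjusted p from limma below 0.9999, and by the methods' t-test the lowest was 0.361. The limma standard errors of 1.11 to 1.51, which follow the trend, gave intervals that reach more than 2 on the log2 scale to either side of the estimate. Each limma interval thus reaches more than 4-fold above and below its estimate. With its own spread Itgax had a narrower interval, -3.23 to -1.60.

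**Figure D4:**
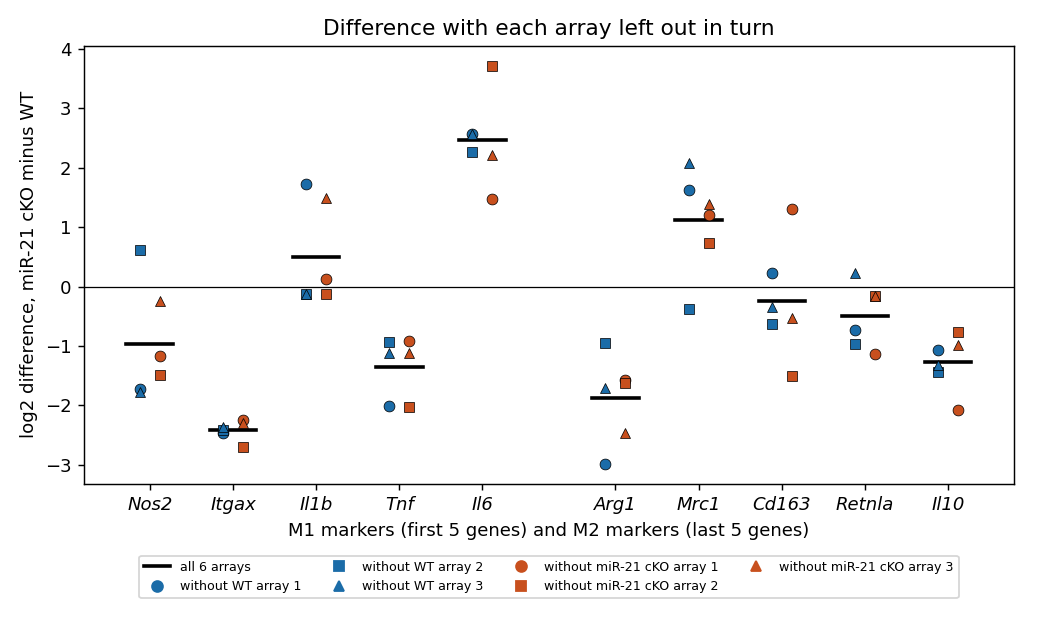
Log2 difference of each marker with 1 array left out. The vertical axis is the difference, miR-21 cKO minus WT, the black bar is the value from all 6 arrays and each point the value without the array given by colour and shape. Itgax stays between -2.70 and -2.25, whereas Nos2, Il1b, Mrc1, Cd163 and Retnla have points on both sides of 0.

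When each marker was centred on its own mean and the median was taken over the 5 genes of a class, the arrays of a genotype did not form a class pattern. The M1 median was -0.63, 1.21 and -1.03 in WT, against -0.09, 0.57 and -1.45 in miR-21 cKO. The M2 median was 0.49, -0.64 and 1.28 in WT, against 0.37, -0.90 and -0.02 in miR-21 cKO. M1 minus M2 was highest on WT array 2 (1.86) and lowest on WT array 3 (-2.32), and the 3 miR-21 cKO arrays lay between these at -0.46, 1.47 and -1.43. The arrays of WT thus spanned a wider range than the distance between the genotypes.

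The pair of gate markers gave another picture than the class medians. Centred Itgax minus centred Mrc1 was 0.61, 4.73 and -0.06 in WT, against -1.91, -1.94 and -1.43 in miR-21 cKO. The miR-21 cKO arrays were lower without overlap, as they were for Itgax alone, whereas the genotypes overlapped for Mrc1 alone. The 4.73 of WT array 2 came with the Mrc1 signal of 59.4 on that array. The pair carries no test, since it was formed with earlier results of these data known.

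**Figure D5:**
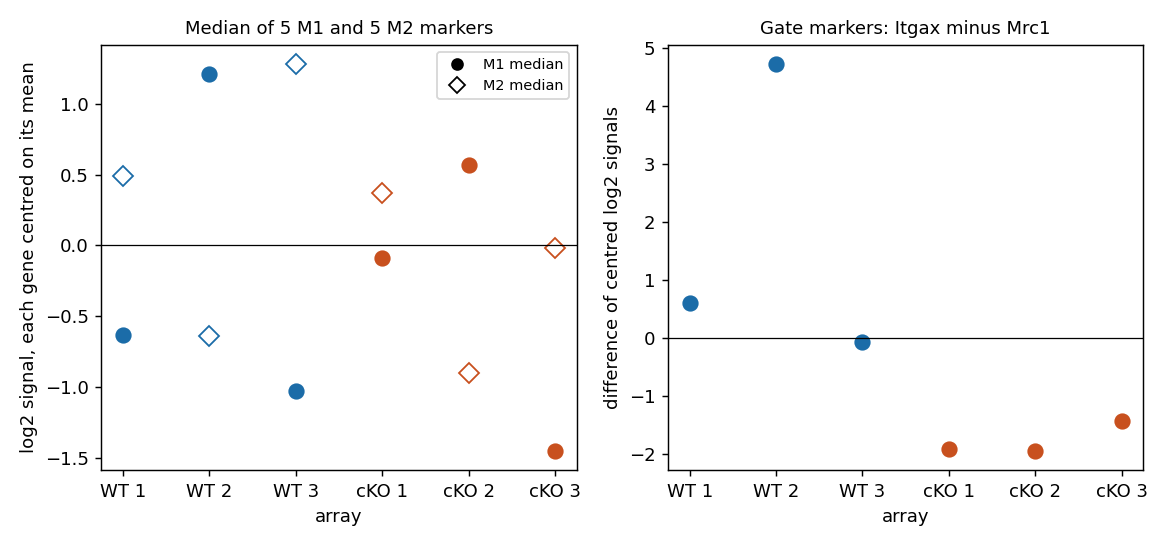
Class medians and gate markers on each array. The left vertical axis is the median over 5 M1 (filled circles) or 5 M2 (open diamonds) markers of the log2 signal centred on the mean of each gene, the right one is centred Itgax minus centred Mrc1, blue stands for WT and orange for miR-21 cKO. The class medians of the genotypes overlap, and the right values are -0.06 to 4.73 in WT and -1.94 to -1.43 in miR-21 cKO.

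By the root mean square difference of centred log2 signals over the 6 arrays, the genes most like Itgax among 1662 genes with a mean above the Olfr background were Sparc (0.39), a collagen-binding matrix protein, Trmt2a (0.41), a tRNA methyltransferase, and Trim37 (0.42), a ubiquitin ligase. The median distance to Itgax was 1.42. Sparc read 1531, 2106 and 2807 in WT, against 451, 893 and 571 in miR-21 cKO. This separation of the genotypes follows from choosing Sparc by likeness to Itgax. The genes most like Mrc1 were Rnf111 (0.50), a ubiquitin ligase, Tril (0.55), an accessory protein of Toll-like receptor signalling, and Zfp39 (0.58), with a median distance of 1.91. All 3 shared the low value on WT array 2, which follows from choosing them by likeness to Mrc1. Rnf111 read 168 on that array, against 1098 to 2299.9 on the other arrays.

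Few other genes of the M1 and M2 programmes were called by limma. With the brightest probe set for each gene, 2.09% of all genes were called higher and 2.28% lower at the same thresholds. Of 17 other M1-associated genes none was called, with a median log2 difference of 0.17. Of 18 other M2-associated genes 0 were called higher and 1 lower, the scavenger receptor Msr1, with a median of 0.31. Msr1 read 92039 on WT array 2, and its difference of -2.82 was -0.93 without that array, no longer called. The chitinase-like protein Chil3 (Ym1), often used beside Arg1 and Retnla, had 50.8 ± 30.9 in WT against 407 ± 349 for miR-21 cKO (SD, n = 3 each) and was not called by limma (log2 difference 2.41, limma unadjusted p = 0.0707). Its signal was under the Olfr background on every array.

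Upstream of the markers, 1 of 12 measured genes of the pathways that induce M1 was called higher and 1 lower. The gene lower was Tlr4, the receptor for lipopolysaccharide (log2 difference -3.10), and the gene higher was Nfkbia, which holds NF-kB in the cytoplasm (log2 difference 3.45). A signal of 62486 on miR-21 cKO array 2 stood behind Nfkbia, whose difference was 1.08 and not called when that array was left out. Tlr4 read 845, 583 and 1203 in WT, against 682, 38.7 and 36.0 in miR-21 cKO, so that miR-21 cKO array 1 lay within the WT range. It was above the Olfr background on 1 of 6 arrays. Tlr4 kept its call in 2 of the 6 fits without 1 array, with -2.37 without miR-21 cKO array 3. Of 14 measured genes of the pathways that induce M2, among them receptor chains for IL-4, IL-13 and IL-10, 0 were called (median log2 difference -0.23). Of the 11 measured genes of arginine metabolism, which supply or use the substrate of Nos2 and Arg1, none was called either. Arg2, the mitochondrial arginase, had the smallest p there, with 206 ± 173 in WT against 814 ± 486 for miR-21 cKO (SD, n = 3 each, log2 difference 2.24, limma unadjusted p = 0.106).

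Among 12 receptors and partners of the markers 1 was called higher, Adam17, the protease that sheds TNF from the cell surface (log2 difference 2.84, limma unadjusted p = 0.0253). It read 1035, 108 and 38.2 in WT, against 1790, 765 and 1134 in miR-21 cKO. WT array 1 was within the miR-21 cKO range, and the call was kept in 2 of 6 fits without 1 array, with 1.79 without WT array 3. Itgb2 (CD18), the partner chain of Itgax, was not called, with 1042, 1381 and 968 in WT, against 1162, 950.3 and 87.7 in miR-21 cKO. Its log2 difference was -1.28, and -0.09 without miR-21 cKO array 3. No gene of these lists passed an adjusted p from limma of 0.05, where 10 of all probe sets did, and by the methods' t-test 0 of their genes were called at the thresholds.

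The label of macrophages was checked on 19 identity genes, whose median lay at a percentile of 52.1 to 65.9 on the WT arrays and 44.6 to 74.2 on the miR-21 cKO arrays. Of these genes 2 had a mean above the Olfr background. For T and B lymphocyte markers the same median was 44.1 to 81.7 in WT and 68.5 to 74.1 in miR-21 cKO. It was 50.2 to 64.3 and 51.5 to 69.2 for sensory neuron markers, and 37.9 to 53.1 and 20.3 to 46.5 for mast cell markers. The identity genes were thus not brighter than the markers of every other cell type. Adgre1 (F4/80) was above the Olfr background on 5 of 6 arrays and read 96.9 on miR-21 cKO array 2, with a log2 difference of -1.44 that was 0.11 without this array. Itgam (CD11b), the other sorting marker, was above it on 1 of 6 and was called higher (log2 difference 2.51), as was Cd14 (2.47). Without 1 array the Itgam difference ran from 1.47 without WT array 2 to 3.68 without WT array 3, and the call was kept in 1 of 6 fits. For Cd14 it ran from 1.52 without miR-21 cKO array 3 to 3.32 without WT array 1, and the call was kept in 2. The defining markers of the sort were thus not bright on every array.

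Markers of other DRG cells stood beside these results, and none was at 0, since MAS5 gave a value above 0 for every probe set. Dendritic cells also carry Itgax, and of 9 of their other markers 0 were called by limma or by the methods' t-test, with summed signals of 2083 to 5933 over the WT arrays and 3455 to 8649 over the miR-21 cKO arrays. Of 9 mast cell markers 2 were called lower by limma (Fcer1a with a log2 difference of -3.07 and Tpsab1 with -3.20), with sums of 4568 to 5827 and 2756 to 6124. Both genes were under the Olfr background on all 6 arrays. Cpa3 (0.82), Hdc (0.71) and Ms4a2 (0.31) were higher without a call, and the median over the 9 was -0.79. Of 14 sensory neuron markers 2 were called higher by limma (Gal with 3.84 and Nefl with 2.97), with sums of 10941 to 22115 and 15501 to 24426. The median log2 difference over the 14 was 0.07, and Tubb3 (-1.76) and Scn9a (-1.37) were among those lower, without a call. By limma none was called among 10 markers of neutrophils (7899 to 10197 and 6994 to 10252), 9 of T and B lymphocytes (7833 to 13107 and 8454 to 11054) and 11 of satellite glia and Schwann cells (4721 to 7148 and 7156 to 12873). Among all genes limma called 2.09% higher and 2.28% lower. The methods' t-test called 4 genes of these cells, Gal, Snap25 (log2 difference 1.76) and the B cell marker Ms4a1 (1.26) higher and Fcer1a lower. Over all probe sets that test called 2.41% higher and 2.53% lower. Snap25 was under the Olfr background on every array. The limma calls of Gal and Nefl held in all 6 fits without 1 array, those of Fcer1a in 2 and of Tpsab1 in 1. The part of these cells in the marker signals was not tested.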

How the data were processed

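RNA of sorted macrophages was amplified by the authors with the WT Pico kit, made for whole-transcript arrays, and hybridized to Mouse 430V2 arrays, which read the 3' ends of transcripts. Whether the labelled strand is the one these probes bind is not stated, so it is uncertain how far a signal measures its transcript. The table the authors deposited holds 1 linear intensity per probe set and array from MAS5, whose version is not stated, scaled to a mean of 500 after trimming 2% from each end. They hold no detection calls. Of 45101 probe sets 64 controls were left out. Genes were named from the platform annotation, updated through Entrez genes of GRCm38.p6 for 34741 probe sets, with 932 of several genes and 9160 unnamed here.

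Log2 signals without further scaling were fitted across all probe sets with limma 3.58.1 in R 4.3.3 (lmFit, eBayes with an intensity trend, Benjamini-Hochberg adjustment over 45037). Since limma estimated an infinite prior degree of freedom, standard errors follow the trend. The methods' t-test assumes equal variance and was run on the same values, since the study names it for pairs of groups and names no test for the arrays. Precision is limited by the number of arrays. Groups and replicate numbers came from the labels. Genes named besides the markers are mainly those that limma or the methods' t-test called in a list. Named as well were Arg2 with the smallest p of its list, the sorting markers, Itgb2, Chil3, and the 3 patterns most like Itgax and Mrc1. Cpa3, Hdc, Ms4a2, Tubb3 and Scn9a, called by neither test, were named since their sign was opposite to the limma calls of their lists. They, Itgb2 and the arrays printed for single list genes were chosen after their values were seen. The markers and lists were chosen with earlier results of these data known. Alternatives were quantile normalization, median centring, a floor, a filter, eBayes without trend, the methods' t-test, a replicate block, leaving out each array and ratios of linear means. Plots were made in matplotlib 3.10.9 (Python 3.11.15).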

Additional observations from a re-analysis of the deposited data

How the results depend on the processing

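The count of markers called higher, 1 (Il6), was kept under quantile normalization, median centring and the replicate number as a block, and was 0 with signals raised to a floor of 94.3 (their 25th percentile), with eBayes without trend, with the methods' t-test and with a filter at the median level, under which Il6 is not tested. It ran from 0 to 1 when 1 array was left out. The count called lower, 0, became 1 (Itgax) with the floor, without trend and in the methods' t-test. The M2 median, -0.49, was 0.43 under the filter, which leaves 2 of the 5 M2 markers, and the M1 median moved by less than the spread between arrays in every alternative run. Cd163 turned to 0.26 with the floor. Leaving out 1 array turned the sign of Nos2 (-1.77 to 0.61), Il1b (-0.12 to 1.73), Mrc1 (-0.37 to 2.07), Cd163 (-1.51 to 1.30) and Retnla (-1.14 to 0.23). The labels do not say whether arrays of the same number were collected or run together. Their deviations from the genotype means correlated at -0.0329 to -0.0159 across probe sets. As the arrays resembled each other little over the whole platform, these values cannot decide it. With the replicate number as a block the Il6 difference was 2.46, the M1 median -0.97 and the M2 median -0.49, as without it, no call among the markers changed, and 1935 of all probe sets were called against 2031. Averaging a gene's probe sets gives the reported values, since each marker has 1. As log2 ratios of mean linear signals, with no test, Nos2 had -2.31, Il6 3.33, Mrc1 0.23, Il10 -0.82, Il1b -0.08 and Cd163 0.86. The whole table had 1427 calls with the floor and 971 among the 22519 probe sets of the filter. Low signal over background limits all of these values.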
